A study of Mus musculus with 2 samples.

Results

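Small leucine-rich proteoglycans are secreted matrix proteins with a core of leucine-rich repeats, most of which carry chondroitin, dermatan or keratan sulfate chains. They bind collagen fibrils and control how these assemble, and several of them hold growth factors such as TGF-beta in the matrix. In bone they are made by osteoblasts and their precursors, and biglycan is among the main proteoglycans of the mineralized matrix. The genes described are the 9 named as decorin (Dcn), biglycan (Bgn), lumican (Lum), fibromodulin (Fmod), osteoglycin (Ogn), asporin (Aspn), osteomodulin (Omd), Prelp and podocan (Podn). They were chosen by name, and every array probe set that the platform annotation gives to exactly 1 of them was taken. That gave 20 of 45037 non-control probe sets for 9 of 18193 annotated genes, and 0 probe sets were shared between a member and another named gene.

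The RNA came from primary cultures of osteoblasts, the bone-forming cells, isolated from the skull vault of 7-day-old mice of the outbred CD1 strain. All cells were first starved of serum for 24 h in medium with albumin, and then received either the solvent DMSO or 2 µM PP1 for 24 h. PP1 blocks c-Src and related tyrosine kinases. Each condition is 1 Affymetrix array, so nothing below was tested, no p-value exists, and every value describes these 2 cultures; the number of arrays limits the precision.

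Signals are the deposited MAS5 values in linear array units. The PP1 array was multiplied by 1.68, which gives both arrays the same mean after trimming 2% of probe sets at each end, so a ratio is relative to the bulk of transcripts. Signals under 31.7, the median of all probe sets, were set to that floor. A log2 ratio is PP1 over DMSO. A gene is represented by its brightest probe set unless stated. In place of a replicate error, different probe sets of 1 gene had a pooled SD of 0.41 in their log2 ratio over 4745 genes, which does not cover variation between cultures. In bulk cultures, fewer cells of a type and less RNA per cell cannot be told apart.

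The osteoblast label was checked against 11 markers. Col1a1 (signal 7558 with DMSO and 9931 with PP1), Alpl (187.5 and 242.3), Sp7 (71.6 and 53.3) and Ibsp (159.1 and 37.7) were above the floor, as were Col1a2 and Dlx5. Dmp1 and Phex were under the floor on both arrays, and Bglap, Runx2 and Spp1 were not found in the annotation used here. The 3' to 5' signal ratio of control transcripts, a sign of RNA quality, went both ways: PP1 minus DMSO on the log2 scale, it was -0.51 for Gapdh, -0.34 for Pcx, 0.14 for Actb and 0.79 for Tfrc.

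All 9 genes were above the floor on both arrays, and they lay on both sides of the bulk of genes. Osteoglycin, decorin and podocan were at least 1.5-fold higher with PP1, lumican was 1.38-fold higher, biglycan and Prelp lay near the bulk, and asporin and osteomodulin were about 1.4-fold lower by their brightest probe sets. Fibromodulin went both ways, depending on the probe set. These directions hold after scaling; as deposited, 8 of the 9 genes lay below 0. In all, 5 of the 9 genes lay above 0 and 4 below, with a median log2 ratio of 0.15 against 0.01 over all 12111 measured genes. That split was 7 and 2 by plain _at probe sets alone, 6 and 3 by the median over probe sets, and 4 and 5 with a loess fit. A ratio above 0 was found for 51% of all measured genes. The 3 genes at least 1.5-fold higher (33.3%) compare with 10.6% of all measured genes, and the 0 genes at least 1.5-fold lower with 7.37%. The count of 3 is fragile, as podocan stood at 0.60 against the mark of 0.58 on the log2 scale. With the median of all genes subtracted in full, it was 2 in 7 of 8 alternative settings (decorin and osteoglycin) and 1 (osteoglycin) with a loess fit. Values called relative to that median further on remove only its shift from the main setting. By those, decorin with loess (0.588) and podocan with median centring (0.593) were just past the mark of 0.585, so the count depends on this choice too. No member reached 2-fold, a size that 2.97% of all measured genes passed upward and 1.55% downward. Of the 19 single probe sets above the floor, 11 were above 0 (55% of all measured probe sets were), 4 were at least 1.5-fold higher (background 13.5%) and 3 at least 1.5-fold lower (background 7.13%). All 3 lower ones were fibromodulin probe sets ending _x_at, and the 4 higher ones include both of osteoglycin, so these counts are not counts of genes. None of the 19 reached 2-fold, which 4.14% of all measured probe sets did upward and 1.44% downward. The log2 ratios of the 9 genes had an SD of 0.53, against 0.48 over all measured genes and 0.39 over the 1211 brightest, a group that holds 6 of the 9. Of the 580 genes with a DMSO signal above 2000, which include the same 6 members, 3.62% were at least 1.5-fold higher and 5.86% at least 1.5-fold lower; decorin and osteoglycin were the 2 members among the higher ones.

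**Figure D1:**
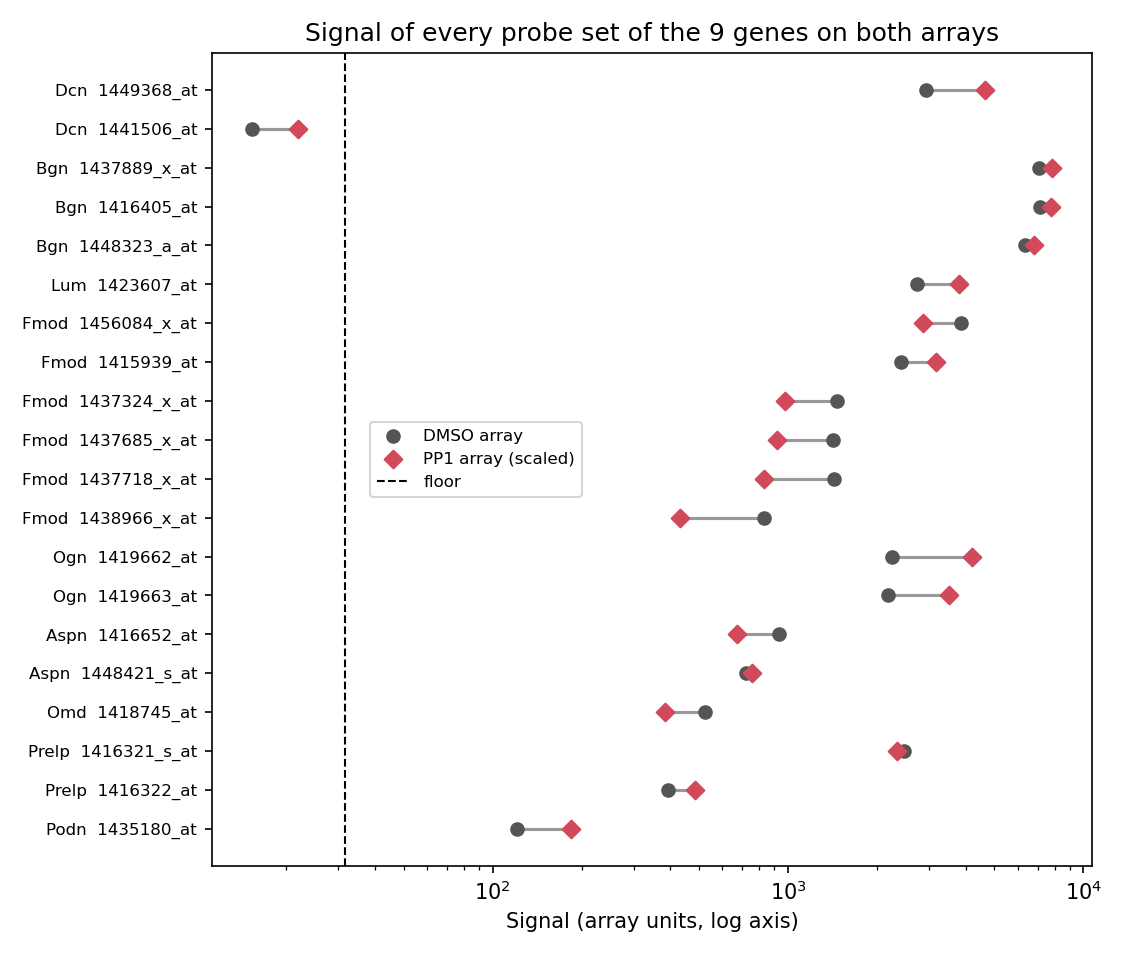
Signal of each of the 20 probe sets on the DMSO array (circles) and, after scaling, on the PP1 array (diamonds), on a log axis, with the floor as a dashed line. Both osteoglycin probe sets move right with PP1, the 5 fibromodulin probe sets ending _x_at move left, and the second decorin probe set lies under the floor on both arrays.

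Decorin and biglycan are the closely related class I members, with chondroitin or dermatan sulfate chains, and both bind TGF-beta. Decorin had a signal of 2939 with DMSO and 4647 with PP1 by its probe set 1449368_at, a 1.58-fold higher value and a log2 ratio of 0.66. Its second probe set, 1441506_at, read 15.3 and 21.9, under the floor on both arrays, so that the decorin value rests on a single probe set. Among the 1211 brightest genes, 1 of 10 equal groups of measured genes by mean signal, 96.0% had a ratio at or below that of decorin.

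Biglycan differed little. Its 3 probe sets gave signals of 7088 against 7846, 7120 against 7766 and 6319 against 6786 (DMSO against PP1), with log2 ratios from 0.10 to 0.15. The range between them, 0.04, was far under the median range of 0.49 for genes with several probe sets. Its DMSO signal puts biglycan among 33 genes above 7000, whose median log2 ratio was 0.37, so it stood lower than the middle of the equally bright genes. A loess fit of the ratio on signal, an alternative scaling, gave biglycan -0.07, so its direction is not settled.

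Asporin, the third member of this class and a binder of collagen and TGF-beta, read 930.4 with DMSO and 670.8 with PP1 by probe set 1416652_at, a log2 ratio of -0.47 and 1.39-fold lower. The other, 1448421_s_at, read 722.2 and 752.4, a log2 ratio of 0.06. The ending _s_at marks probes that can match transcripts of more than 1 gene. The difference of 0.53 between both probe sets is larger than the asporin ratio itself, and the direction for asporin rests on the choice of probe set.

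Lumican, fibromodulin, osteomodulin and Prelp form class II, most of them keratan sulfate carriers. Lumican, which regulates fibril spacing and is best known from the cornea, read 2739 with DMSO and 3779 with PP1 on its single probe set, a log2 ratio of 0.46. Osteomodulin, also called osteoadherin, is a bone-enriched member that binds mineral and integrins. It read 522.0 with DMSO and 384.0 with PP1, a log2 ratio of -0.44 or 1.36-fold lower, again on 1 probe set. Prelp, which links basement membranes to collagen, gave no settled direction: 2476 against 2334 (-0.09) with the brighter 1416321_s_at, and 393.0 against 485.1 (0.30) with 1416322_at.

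Fibromodulin, which binds type I collagen and steers its cross-linking, had 6 probe sets, and they split by kind. Probe set 1415939_at read 2419 with DMSO and 3178 with PP1, a log2 ratio of 0.39. The other 5 all end in _x_at, the array maker's mark for probes that may cross-hybridize with other sequences. Their signals were 3857 against 2869, 1468 against 980.2, 1416 against 914.3, 1429 against 826.8 and 827.6 against 430.7 (DMSO against PP1). All 5 were lower with PP1, with log2 ratios from -0.94 to -0.43 and a mean of -0.67 ± 0.20 (SD over 5 probe sets, which are not replicates). The lower direction of the gene therefore comes from the _x_at probe sets alone, and leaving out probe sets with a shared mark gives 0.39 in its place.

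**Figure D2:**
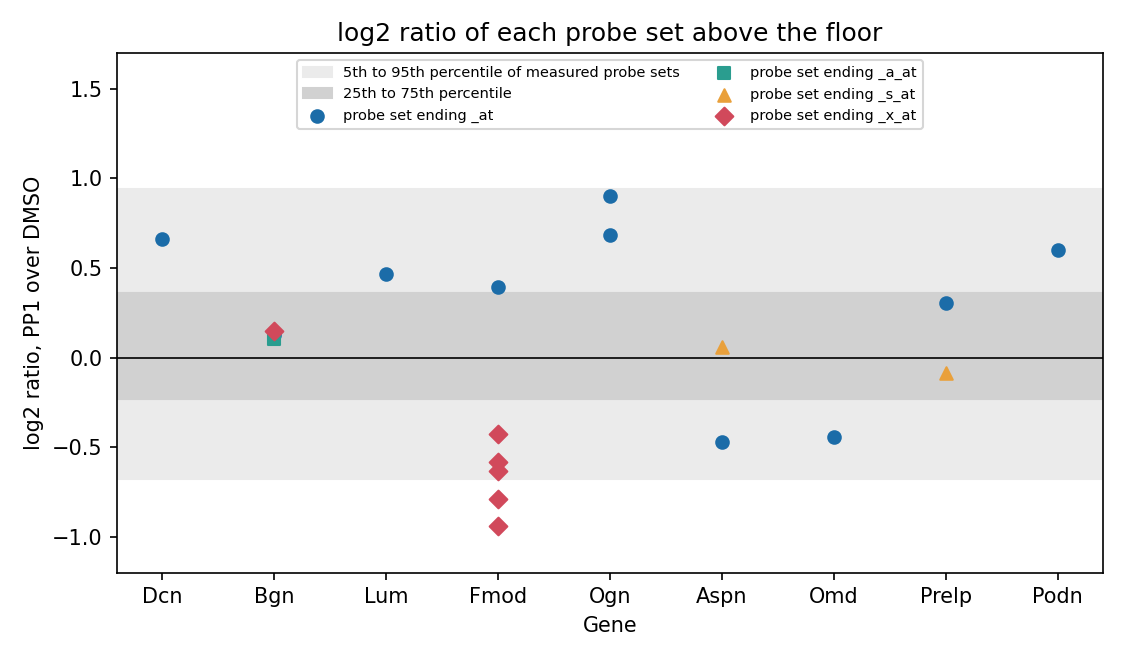
log2 ratio of PP1 over DMSO for each of the 19 probe sets above the floor, by gene, with the ending of the probe set as colour and shape. Grey bands give the middle 50% and the 5th to 95th percentile (-0.68 to 0.94) of the 24180 measured probe sets; 2 fibromodulin probe sets ending _x_at lie below the wider band, and the higher osteoglycin probe set is just inside it.

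Such a gap between kinds of probe set was seen in other genes too. Over 636 genes with both kinds above the floor on both arrays, the median of the _x_at probe sets minus that of the plain _at probe sets was -0.16 in the middle gene, and 414 of the 636 had a lower value by _x_at. Fibromodulin stood at -1.03, and 37 of these genes (5.82%) were at or below it. Biglycan, the other member with such a probe set, stood at 0.02. For _s_at probe sets the middle difference was -0.09 over 897 genes, with Prelp at -0.39 and asporin at 0.53. Counting all kinds, the range of 1.34 between the fibromodulin probe sets was reached by 52 of 239 genes with 5 or more (21.8%), so its disagreement is large and not rare. What the _x_at probes bind in these samples was not tested.

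**Figure D3:**
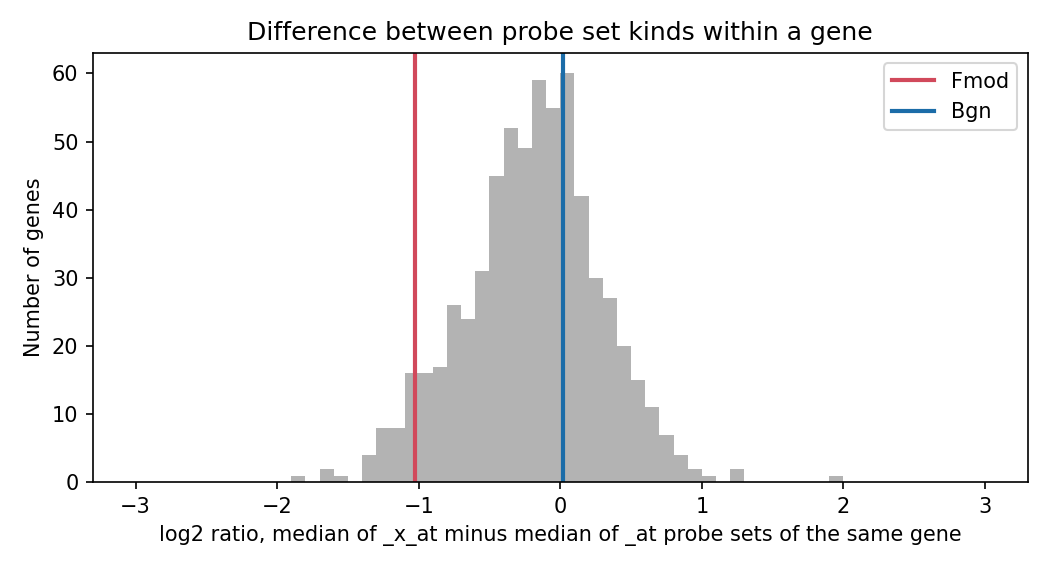
Number of genes by the difference in log2 ratio between their _x_at and plain _at probe sets, over 636 genes. The fibromodulin line stands at -1.03, in the lower tail, and the biglycan line at 0.02, near the middle.

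Osteoglycin, a class III member also called mimecan, was the highest of the 9. Its probe set 1419662_at read 2254 with DMSO and 4211 with PP1, a log2 ratio of 0.90 or 1.87-fold higher, and 1419663_at read 2183 and 3505, a log2 ratio of 0.68. Both probe sets were more than 1.5-fold higher, and osteoglycin ranked 505th of the 12111 measured genes from the highest ratio down. Among the 1211 brightest genes, 98.2% had a ratio at or below it. Among members with more than 1 probe set above the floor, only osteoglycin and biglycan had all of them on 1 side of 0.

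Podocan, a class V member studied in the vessel wall, read 121.4 with DMSO and 183.8 with PP1 on its single probe set, a log2 ratio of 0.60. That is 1.51-fold higher, only just past the 1.5-fold mark, from the dimmest signal of the 9. In its own group of 1211 genes by signal the log2 ratios had an SD of 0.54, against 0.39 among the 1211 brightest, and 88.2% of them lay at or below podocan.

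By position in the RefSeq gene table of assembly GRCm38.p6, 7 of the 9 genes lie beside another of them, with 0 protein-coding genes between. Decorin and lumican are neighbours on chromosome 10, Prelp and fibromodulin on chromosome 1, and asporin, osteomodulin and osteoglycin follow each other on chromosome 13. Decorin and lumican were both higher with PP1 (0.66 and 0.46). The 3 genes on chromosome 13 did not go together: asporin (-0.47 by its brighter probe set, 0.06 by the dimmer) and osteomodulin (-0.44) were lower and the adjacent osteoglycin (0.90) was higher. Osteoglycin and osteomodulin differed by 1.34 in their log2 ratio, or by 1.13 with the second osteoglycin probe set; the pair was picked after its values were seen.

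Because these neighbours gave different ratios, the 250 bases before each RefSeq transcription start are shown, as given by RefSeq for GRCm38.p6, 5′ to 3′ on the plus strand. Both strands were searched for TATAAA, the AP-1 motif TGANTCA, the TEAD motif GGAATG, the RUNX motif TGTGGT and the CArG box bound by SRF. Capitals mark matches. The windows are chr13:49544193-49544442 (asporin), chr13:49582212-49582461 (osteomodulin) and chr13:49607765-49608014 (osteoglycin).
Aspn: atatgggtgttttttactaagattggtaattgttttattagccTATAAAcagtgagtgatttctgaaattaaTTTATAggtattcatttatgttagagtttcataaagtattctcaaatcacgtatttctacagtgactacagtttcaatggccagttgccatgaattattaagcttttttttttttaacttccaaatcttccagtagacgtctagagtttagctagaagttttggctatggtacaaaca
Omd: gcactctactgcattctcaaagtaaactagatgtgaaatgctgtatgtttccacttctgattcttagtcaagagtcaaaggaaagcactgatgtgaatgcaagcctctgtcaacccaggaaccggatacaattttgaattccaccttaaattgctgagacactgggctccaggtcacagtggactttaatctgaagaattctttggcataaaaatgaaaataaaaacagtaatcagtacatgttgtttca
Ogn: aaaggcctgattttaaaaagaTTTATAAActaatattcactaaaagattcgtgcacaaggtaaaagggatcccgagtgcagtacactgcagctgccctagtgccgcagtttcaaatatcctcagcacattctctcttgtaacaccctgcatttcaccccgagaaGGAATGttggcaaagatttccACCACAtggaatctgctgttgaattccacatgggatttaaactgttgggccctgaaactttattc
The asporin window held 2 matches, both to TATAAA, and the osteomodulin window none to any of these motifs. The osteoglycin window held TATAAA on both strands at overlapping positions far upstream, starting 229 bases before the transcription start, a TEAD match starting 86 bases before the start and a RUNX match on the minus strand 65 bases before it. Among 32536 windows of this length, 12.3% held TATAAA, 12.6% the TEAD motif, 14.0% the RUNX motif, 6.73% the AP-1 motif and 1.48% a CArG box, so single matches are common. Windows were matched for 7 of the 9 genes. The biglycan, fibromodulin and Prelp windows and both podocan windows held none of these motifs; decorin and lumican had no entry. A match is a run of letters and not a bound site, and the absence of a match says only that the letters are not in this window.

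Other members of the family were mostly too dim to read. Of 9 further small leucine-rich repeat genes, Epyc (epiphycan, a cartilage member) read 572.2 with DMSO and 630.4 with PP1, a log2 ratio of 0.14, and Chadl 33.8 and 40.1, close to the floor. Chad, Ecm2, Kera, Nyx and Optc were under the floor on both arrays, and Podnl1 and Tsku were not found in the annotation used here. Ecm2, the gene before asporin, and Kera and Epyc, which follow lumican, thus give a ratio only for Epyc.

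The enzymes that build the chains of these proteins also lay on both sides. For chondroitin and dermatan sulfate, 20 of 23 genes were measured, with a median log2 ratio of -0.08; 9 lay above 0. At least 1.5-fold higher were 4 (20%, against 10.6% of all measured genes), and 4 were at least 1.5-fold lower (20%, against 7.37%). The lowest was Chsy3, a chain-elongating synthase, at 139.7 with DMSO and 53.6 with PP1 (-1.38). B4galt7, an enzyme of the linker between protein and chain, was lower by both probe sets. The brighter, which ends in _x_at, gave -0.84 and the dimmer plain one -0.29. B3gat3 (0.96), also a linker enzyme, and the sulfotransferase Chst15 (0.94) were higher, from dim DMSO signals of 88.2 and 55.1. Dse and Dsel, the epimerases that make dermatan from chondroitin sulfate, were at -0.13 and -0.12.

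For keratan sulfate, 10 of 12 genes were measured, with a median of 0.17 and 7 above 0 (70%, against 51% of all measured genes). The sulfotransferase Chst2 was the only gene of this list past 2-fold, at 180.2 with DMSO and 432.1 with PP1, a log2 ratio of 1.26. The sialyltransferases St3gal1 (0.77) and St3gal2 (0.53, its 3 probe sets from 0.07 to 1.18) followed. The extending enzyme B3gnt2 had probe sets on both sides, with -0.59 for the brighter and 0.53 for the dimmer.

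Large and cell-surface proteoglycans had a median log2 ratio of -0.18 over 18 of 24 genes, with 7 above 0 (38.9%, against 51%). The cartilage proteoglycan aggrecan (Acan) read 166.6 and 73.4, a log2 ratio of -1.18, and Cspg4, the NG2 proteoglycan of pericytes, read 549.4 and 164.4 (-1.74, and -0.68 by its other probe set). The 2 probe sets of syndecan 4 (Sdc4) also disagreed, with -0.55 for the brighter and 0.31 for the dimmer. Serglycin (Srgn), a proteoglycan of blood cell granules, was at 0.65. In this list 0 genes were at least 2-fold higher (2.97% of all measured genes were) and 2 at least 2-fold lower (11.1%, against 1.55%).

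**Figure D4:**
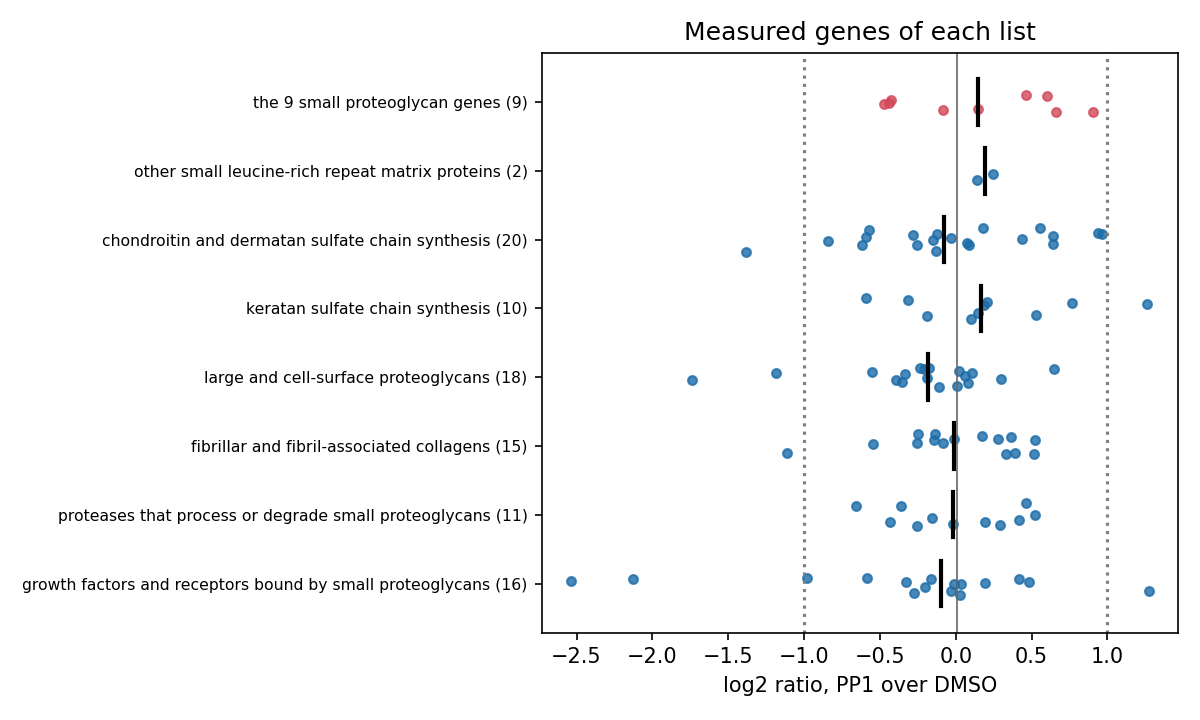
log2 ratio of PP1 over DMSO for the measured genes of each list, with the number measured in brackets, black bars at the medians, a grey line at the median of all genes and dotted lines at 2-fold. The 9 small proteoglycan genes lie between -0.47 and 0.90, inside 2-fold, while 5 of the other 7 lists hold genes beyond it.

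Fibrillar and fibril-associated collagens, which these proteins coat, centred on -0.01 (median of 15 genes), and 7 of the 15 (46.7%, against 51%) lay above 0. Col3a1 (0.52, and 0.07 by its other probe set), Col1a2 (0.52) and Col1a1 (0.39) were on the higher side, with DMSO signals above 7000, where the middle gene stood at 0.37. A dim probe set of Col1a2 gave -0.91. The fibril-nucleating type V chains Col5a1 (-0.55, its 3 probe sets from -0.63 to -0.53) and Col5a3 (-1.11) were lower. The type V chain Col5a2 had probe sets on both sides, with 0.17 for the brighter and -0.65 for the dimmer.

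Proteases that process or degrade these proteins, with procollagen enhancers in the same list, had a median of -0.02 over 11 of 13 genes. The membrane protease Mmp14 was at 0.52 by its brightest probe set and at 1.18 and 1.90 by 2 dimmer ones. The aggrecanase Adamts4 was at -0.66 and the related Adamts5 at 0.46, and the procollagen enhancer Pcolce2 at -0.43. The brighter enhancer Pcolce was at 0.29, and at 0.61 by its other probe set. No gene of the list reached 2-fold by its brightest probe set.

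The growth factors and receptors that bind small proteoglycans centred on -0.10 (median of 16 genes). Above 0 lay 6 of them (37.5%, against 51%), and 4 were at least 1.5-fold lower (25%, against 7.37%). Among those above 0, Bmp2 was under the floor with DMSO (24.3) and counts through the PP1 array alone (42.3). The matricellular proteins Ccn2 and Ccn4, the latter a ligand of decorin and biglycan, were the lowest at -2.54 and -2.13. Tgfb1, which decorin, biglycan, fibromodulin and asporin bind, read 673.1 with DMSO and 340.9 with PP1 (-0.98). Met, a receptor that decorin binds, read 149.4 and 360.8 (1.27). These lists were fixed by name with earlier results of these arrays known, so none of their values is independent evidence of a direction.

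Small proteoglycans are made by several connective tissue cells, so markers of these are given beside them. Of the 12 fibroblast and periosteum markers 9 were measured and 7 lay above 0 (77.8%, against 51% of all measured genes). Their median was 0.57, with summed signals of 8509 with DMSO and 11964 with PP1. Dpp4 and Pi16 were under the floor. Of 7 tendon and ligament markers 6 were measured and 4 lay below 0 (66.7%, against 49.0% of all measured genes). Their median was -0.53, midway between the ratios of Egr1 (-0.66) and Mkx (-0.40), with summed signals of 4380 and 3274. Egr1 held the largest part of these sums, at 2498 and 1586, and Thbs4 read 872.0 and 375.0. The tendon gene tenomodulin (Tnmd) was at 0.65 and Scx was under the floor with PP1, and Kera on both arrays. Cartilage markers had a median of -0.14 over 9 of 12 genes, with sums of 6315 and 5551, and smooth muscle and pericyte markers -0.27 over 9 of 10, with sums of 11869 and 9103 and Myh11 under the floor. Macrophage markers had a median of 0.13 over 13 of 14 genes, with sums of 15553 and 18114. The 5 measured of 8 adipocyte markers were all above 0 (against 51% of all measured genes), with a median of 0.55 and sums of 4199 and 7693. Most of these sums came from Lpl (1614 and 4022) and Fabp4 (1737 and 2552). Cidec and Lep were under the floor on both arrays, and Plin1 was not found in the annotation used here. Skeletal muscle markers had the highest median of the marker lists, 0.64 over 9 of 11 genes, with sums of 1143 and 1330. Of the 9, 7 lay above 0 (77.8%, against 51% of all measured genes). At least 1.5-fold higher were 6 (66.7%, against 10.6%). Their higher members were dim: Des read 39.4 and 105.9, and Myh8 37.4 and 76.3. Myog and Myod1 were under the floor with DMSO and count as measured through the PP1 array alone. The median of the list is the floored ratio of Myod1. Ckm and Pax7 were under the floor on both arrays. Medians were -0.11 for osteoclasts (6 of 9 genes), 0.19 for endothelium (4 of 7), -0.18 for epithelium (6 of 7) and 0.47 for neural and glial markers (3 of 7). Of these genes, Cdh5, Cdh1 and Gfap count as measured through the PP1 array alone. Oscar, Tnfrsf11a, Krt5 and the smooth muscle gene Cnn1 do so through the DMSO array alone. The endothelium genes were all dim, from 23.3 (Cdh5 with DMSO) to 55.2 (Tek with PP1), and their median includes the floored ratio of Cdh5. The part of any of these cells in the ratios of the 9 genes was not tested.

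All directions above are relative to the bulk of genes. Without scaling, where the PP1 array was dimmer, osteoglycin (0.15) was the only member above 0, and only by 1 of its probe sets; 18 of the 19 member probe sets above the floor were then lower with PP1. Decorin stood at -0.09, podocan at -0.15, lumican at -0.28 and biglycan at -0.60, while the median of all genes was -0.70. The order of the genes did not depend on that choice, because a scale factor moves all of them together. With a loess fit osteoglycin was at 0.84, decorin at 0.57 and podocan at 0.53 as that fit gives them, with the last 2 near the 1.5-fold mark.

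**Figure D5:**
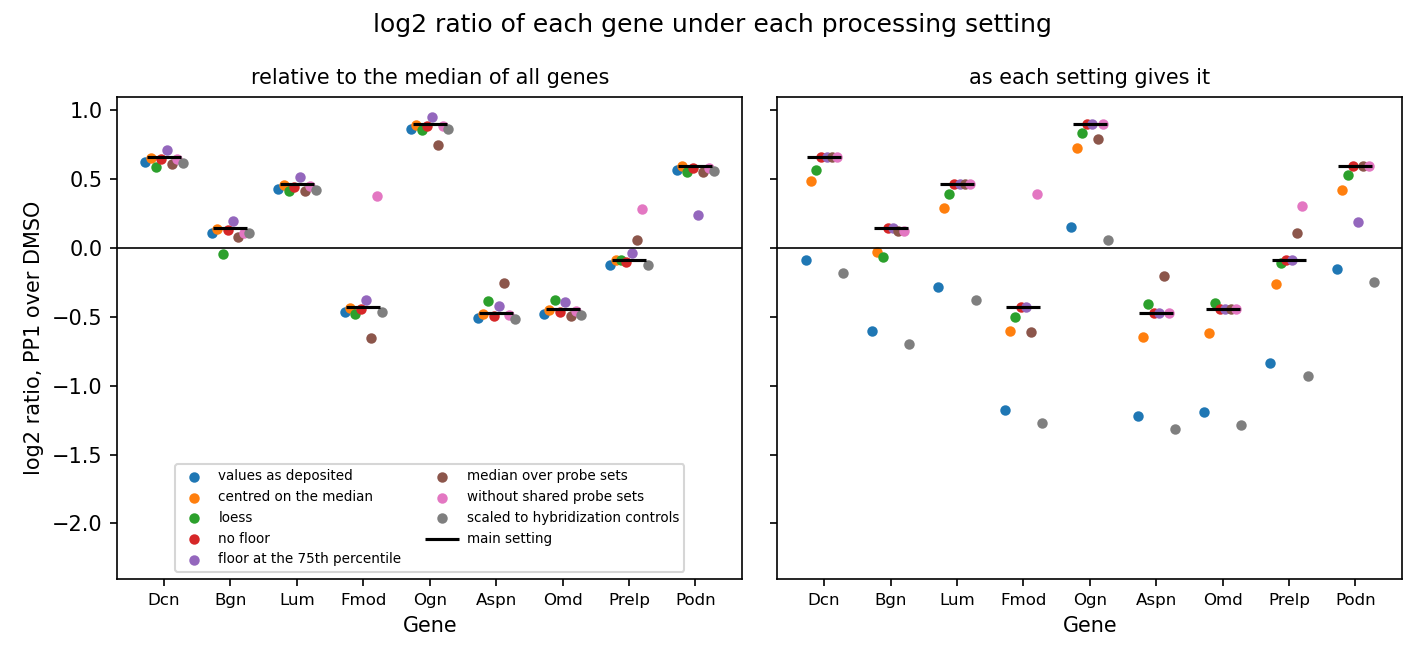
log2 ratio of each of the 9 genes under the main setting (black bar) and 8 other settings (coloured points), on the left relative to the median of all genes and on the right as each setting gives it. Relative to all genes, decorin, lumican, osteoglycin and podocan stay above 0 and asporin and osteomodulin below 0 in all 8, and fibromodulin, Prelp and biglycan cross 0 in at least 1.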

How the data were processed

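Primary mouse osteoblasts were profiled on 2 Affymetrix arrays, 1 per condition. The deposited values are linear intensities per probe set, made with MAS5 per the submitters' processing notes. Version, target scaling and build: not given in the sources used here. Names came from the platform annotation, updated by gene identifier through RefSeq GRCm38.p6 (34741 of 34945 single-gene probe sets matched); 932 probe sets had several genes and 9160 none here.

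The PP1 array was scaled by 1.68 (trimmed means of 158.1 and 94.1). The floor was the 50th percentile of both arrays, 31.7. A gene's probe set was that with the highest mean log2 signal before flooring, measured if above the floor on at least 1 array. With 1 array per group no test was possible. The steps were tested on simulated data. Members and lists were chosen with earlier results of these data known. Named genes were all members, the up to 4 largest ratios per list, Col1a1, Col1a2, Col3a1 and defining markers. Dse, Dsel, Col5a2, Pcolce and further probe sets were named after their values were seen. Alternatives were other scalings, floors, probe set choices and fold thresholds. Python 3.11.15, numpy 2.4.6, pandas 2.3.3 and statsmodels 0.14.6 were used.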

Additional observations from a re-analysis of the deposited data

How the results depend on the processing

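Relative to the median of all genes, the median of the 9 genes ran from -0.05 (loess) to 0.38 (without probe sets with a shared mark), against 0.15. Of 72 values of the 9 genes under 8 alternatives, 71 moved by less than the SD between probe sets; fibromodulin, at 0.38 without shared probe sets, did not. All 114 values of single probe sets under 6 of these alternatives moved by less than that SD. A changed scale factor or floor moves bright genes together. Relative to the median of all genes, such settings could hardly move them, so both counts say little about robustness. Podocan went to 0.24 with a floor at the 75th percentile. The count of members at least 2-fold lower was 3 as deposited and 3 when scaled to 18 hybridization controls, a setting added after seeing the data, against 0. At least 1.5-fold higher were 3 members, or, with the median of all genes subtracted in full, 2 in 7 alternatives and 1 with loess. With only the shift of that median removed, decorin with loess (0.588) and podocan with median centring (0.593) also passed. Over all genes, those at least 2-fold higher and lower were 50 and 2877 as deposited, 35 and 3774 by the hybridization controls, 223 and 351 centred on the median, 2064 and 1522 without a floor, 111 and 84 with the higher floor, 1282 and 893 at 1.5-fold and 60 and 42 at 3-fold, against 360 and 188. The median of all genes shifted by -0.71 as deposited, -0.80 by the controls and -0.17 with median centring. The list of other family members, with 2 measured genes, went to -0.41 without a floor, where signals under 31.7 enter. The other 6 list medians moved by less than the SD between probe sets in each alternative, a wide measure for a median. Some of them changed sign. With the higher floor, large and cell-surface proteoglycans went to 0.06 and collagens to 0.13. Proteases went to 0.16 as deposited, and growth factors and receptors to 0.03 by the median over probe sets. No paired analysis was possible because each group is 1 array. Dim signals limit podocan and the other family members most.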
